A study of Mus musculus with 24 samples.

Results

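Chemokines are small secreted proteins that guide leukocytes along gradients. They are named by the spacing of their conserved cysteines (CC, CXC, CX3C and C) and act on receptors of the G protein-coupled family. After a peripheral nerve lesion the cell bodies of the cut axons lie in the dorsal root ganglion (DRG), where CC ligands such as *Ccl2* are known to draw in monocytes, and where neurons, satellite glia and macrophages can all make chemokines. The members described here are the genes whose name in the array files was Ccl, Cxcl, Ccr or Cxcr followed by a digit, or *Cx3cl1* or *Xcl1*. They comprised 53 of the 27398 gene names on the array and were measured by 67 of its 41174 probes. There were 20 CC ligands, 13 CXC ligands, 2 ligands of the CX3C and C classes, 11 CC receptors and 7 CXC receptors.

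RNA came from L4 and L5 DRGs of adult male C57BL/6J mice, either *Nfil3* knockout (KO), made by crossing mice with a loxP-flanked *Nfil3* gene, which encodes a transcription factor, to mice with Cre recombinase driven by a human CMV promoter, or wildtype (WT). The left sciatic nerve was cut and its ends were coaptated, and DRGs were taken at day 2 or day 5 post-lesion, and the control DRGs of KO or WT mice were those of the uncut side. There were 6 groups of 4 samples (WT control, WT day 2, WT day 5, KO control, KO day 2 and KO day 5), so that each time point had 8 samples over both genotypes. The deletion was not limited to a cell type, so neurons and immune cells carried it alike. The labels call the tissue DRG neurons, but markers of satellite glia (5 of 5), Schwann cells (5 of 5) and macrophages (10 of 10) were well above background in all 24 samples beside those of sensory neurons (8 of 8). In such bulk tissue, fewer cells of a type and less RNA per cell cannot be told apart.

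Levels are log2 intensities after background correction and quantile normalization, and a difference is a difference of such levels, so that a value of 1 is a doubling. Adjusted p-values are Benjamini-Hochberg values over all probes from limma, with 0.05 as the threshold, and the brightest probe stood for a gene. Between 54.5% and 72.3% of the probes were well above background in a sample, and correlations within a group ranged from 0.952 to 0.975. *Nfil3* itself was between 8.44 and 9.03 in WT controls and between 10.34 and 11.08 in lesioned WT samples. In KO samples it was between 2.82 and 6.22, except in KO control replicate 4, where it was 7.59. Another label field of that sample gives day 5 rather than control, so results that rest on it are also given without it. Controls also differed by array: 4 of the 8 controls were hybridised beside a lesioned sample, and values without these 4 are given where they change a call. The days were spread unevenly over the 3 slides, with 3, 2 and 3 controls, 1, 4 and 3 day 2 samples and 4, 2 and 2 day 5 samples on slides 1, 2 and 3. At day 5, WT samples were on slides 1 and 3 only, and KO samples on slides 1 and 2 only. Dim members gave smaller differences under milder background correction (normexp with an offset of 50), and such values are given where they differ most.

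Of the 53 members, 20 were well above background in all 24 samples, 25 in some and 8 in none. The last were *Ccl22*, *Ccr1*, *Ccr8*, *Cxcl17*, *Cxcl3*, *Cxcl5*, *Cxcr1* and *Cxcr5*, and their values are not given. Another 8 (*Ccl28*, *Ccl3*, *Ccr1l1*, *Ccr4*, *Ccr6*, *Ccr7*, *Cxcl15* and *Cxcl2*) were well above background in 1 to 3 samples. The 20 members detected throughout included the monocyte attractants *Ccl2*, *Ccl7*, *Ccl8* and *Ccl12*, the homeostatic ligands *Cxcl12*, *Ccl19*, *Ccl21a*, *Ccl25* and *Ccl27a*, the membrane-bound ligands *Cx3cl1* and *Cxcl16*, and the receptors *Ccr2*, *Cxcr4* and *Cxcr7*. *Ccl19*, *Ccl21a* and *Ccl27a* have near-identical copies in the mouse genome, and which copy their probes measured is uncertain.

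The promoters of 39 of the 53 members were matched in a RefSeq table of GRCm38.p6 (250 bases before to 50 after the start, 300 in all). Printed here are those of *Ccl12* and *Ccl8*, neighbours on chromosome 11 that rose together, of *Cxcl1* and *Cxcl2*, neighbours on chromosome 5 of which *Cxcl1* was measurable and *Cxcl2* mostly not, and of *Cxcl14*, the CXC ligand with the largest rise at day 5. Capitals mark a match to GGANTTTCC (a kappaB-like word, in *Cxcl1* and *Cxcl2*) or GAAANNGAA (an interferon response-like word, in *Cxcl14*). They are *Ccl12* (chr11:82101595-82101894, plus strand), *Ccl8* (chr11:82114935-82115234, plus strand), *Cxcl1* (chr5:90890995-90891294, plus strand), *Cxcl2* (chr5:90903649-90903948, plus strand) and *Cxcl14* (chr13:56296502-56296801, minus strand).
Ccl12: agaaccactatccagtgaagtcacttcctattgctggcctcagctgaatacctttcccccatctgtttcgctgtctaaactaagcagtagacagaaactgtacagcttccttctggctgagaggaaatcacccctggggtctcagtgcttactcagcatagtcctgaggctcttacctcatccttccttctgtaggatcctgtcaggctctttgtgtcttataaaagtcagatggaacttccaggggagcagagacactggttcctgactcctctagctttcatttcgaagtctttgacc
Ccl8: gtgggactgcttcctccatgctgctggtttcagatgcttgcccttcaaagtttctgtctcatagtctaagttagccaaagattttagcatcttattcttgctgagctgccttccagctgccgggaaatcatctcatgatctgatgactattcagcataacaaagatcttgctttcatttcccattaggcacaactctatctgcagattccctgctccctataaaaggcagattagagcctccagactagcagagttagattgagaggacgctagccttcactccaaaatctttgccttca
Cxcl1: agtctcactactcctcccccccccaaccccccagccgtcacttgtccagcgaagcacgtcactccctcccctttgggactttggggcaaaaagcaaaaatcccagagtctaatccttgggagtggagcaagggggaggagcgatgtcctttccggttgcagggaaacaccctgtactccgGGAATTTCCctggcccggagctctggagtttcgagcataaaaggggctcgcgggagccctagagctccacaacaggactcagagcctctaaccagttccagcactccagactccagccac
Cxcl2: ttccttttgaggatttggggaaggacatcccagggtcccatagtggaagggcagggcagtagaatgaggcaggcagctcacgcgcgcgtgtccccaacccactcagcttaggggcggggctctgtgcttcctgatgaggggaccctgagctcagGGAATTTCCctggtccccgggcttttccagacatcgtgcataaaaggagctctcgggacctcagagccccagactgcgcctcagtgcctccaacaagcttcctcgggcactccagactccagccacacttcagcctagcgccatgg
Cxcl14: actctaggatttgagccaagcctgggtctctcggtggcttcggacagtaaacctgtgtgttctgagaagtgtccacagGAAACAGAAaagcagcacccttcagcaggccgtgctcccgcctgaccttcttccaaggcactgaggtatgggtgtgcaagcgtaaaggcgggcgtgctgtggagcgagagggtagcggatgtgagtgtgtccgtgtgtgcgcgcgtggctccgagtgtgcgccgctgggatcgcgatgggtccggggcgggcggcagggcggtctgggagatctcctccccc

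Both strands were searched for 4 words, and no 2 matches overlapped. The kappaB-like word was found in the promoters of *Cxcl1*, *Cxcl2*, *Cxcl3*, *Cxcl10* and *Ccr3* (12.8% of the 39 members, against 1.25% of 32851 promoters in the table). In *Cxcl1* it started at base 181 of the window, in *Cxcl2* at base 155 and in *Cxcl3* at base 179, with the same letters in each. The interferon response-like word was found in 8 members (*Ccl1*, *Ccl3*, *Ccl19*, *Ccr2*, *Cxcl9*, *Cxcl10*, *Cxcl14* and *Cxcr1*; 20.5%, against 8.56%). TTANNTAA, a word like the one NFIL3 binds, was found in *Ccr6* and *Cxcl15* only (5.13%, against 6% of all), and the full cyclic AMP response element TGACGTCA in none of the 39 (against 1.79%). These matches are descriptions of letters in a window. The neighbours *Ccl12* and *Ccl8* held none of the 4 words.

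The lesion changed chemokine expression mainly upwards, and differently at day 2 and day 5. In the F test of day 2 and day 5 against control over both genotypes, 22 of 53 members passed the threshold (41.5%), against 26.3% of all genes. One of the 22, *Ccl22*, was well above background in no sample. At day 2, 16 members passed (22.3% of all genes did), of which 12 rose and 4 fell, where 9.39% of all genes rose and 12.9% fell. At day 5, 16 members passed (23.3% of all genes did), of which 15 rose and 1 fell, where 10.2% of all genes rose and 13% fell. From day 2 to day 5, 11 members passed (3.33% of all genes did), and all 11 rose, where 2.32% of all genes rose and 1.01% fell. All 8 day 2 samples lay above all 8 controls in 5 members (3.74% of all genes) and below them in none (3.01%). All 8 day 5 samples lay above all 8 controls in 11 members (5.6% of all genes) and below them in 1 (6.26%). The median difference of all members was 0.13 at day 2 and 0.36 at day 5, and that of all genes was -0.02 and -0.03. Among the 37 members well above background in at least 4 samples, 21 passed the F test, where 36.2% of all such genes did. That filter favours genes that rose.

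**Figure D1:**
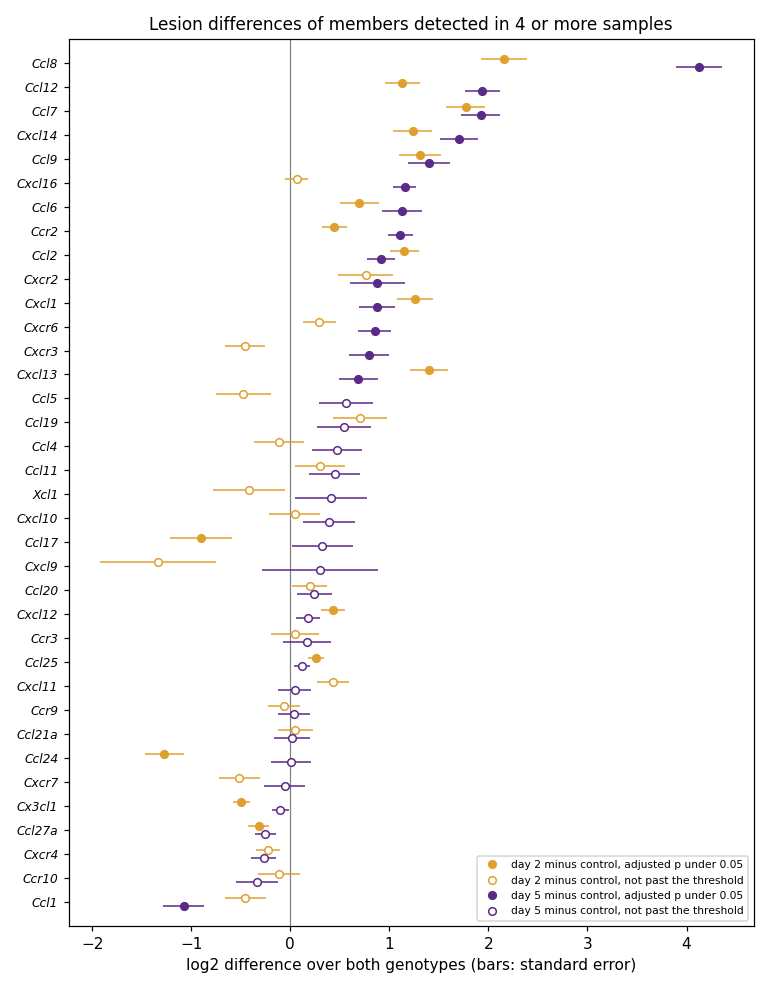
Differences from control at day 2 (orange) and day 5 (purple) over both genotypes, on the log2 scale, for members well above background in at least 4 samples, with bars for the standard error. Filled points passed the threshold. *Ccl8* lies farthest to the right with 4.13 at day 5, and *Ccl24* farthest to the left among filled points with -1.27 at day 2.

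The largest changes at day 5 were in *Ccl8*, *Ccl12* and *Ccl7*, CC ligands of a cluster on chromosome 11. With *Ccl2*, which changed less, they are known as the monocyte chemoattractant proteins. The probe of *Ccl8* lies at chr11:81930108-81930167 (mm9, plus strand). Its level was 7.24, 6.96, 6.54 and 8.33 in WT controls, 9.55, 9.43, 10.30 and 8.97 at WT day 2 and 11.59, 11.48, 11.60 and 11.92 at WT day 5. In KO mice it was 7.32, 7.54, 7.69 and 8.37 in controls, 10.26, 9.54, 9.56 and 9.63 at day 2 and 11.71, 11.80, 11.86 and 11.05 at day 5. The controls, the day 2 samples and the day 5 samples thus formed 3 ranges that did not overlap. *Ccl8* rose 4.46-fold by day 2 (log2 difference 2.16 ± 0.23, SE, n = 8 against 8, adjusted p in limma 1.06e-06) and 17.5-fold by day 5 (4.13 ± 0.23, adjusted p in limma 5.52e-11). The rise from day 2 to day 5 was 3.93-fold and passed the threshold as well (adjusted p in limma 3.92e-05). Without KO control replicate 4 the day 5 difference was 4.24.

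*Ccl7* (probe at chr11:81860656-81860715) was between 6.05 and 7.43 in the 8 controls (median 6.63), between 7.87 and 9.04 at day 2 (median 8.48) and between 8.40 and 9.01 at day 5 (median 8.69). All lesioned samples lay above all controls, at a similar level at both times. It rose 3.42-fold by day 2 and 3.79-fold by day 5 (adjusted p in limma 1.42e-06 and 3.42e-07), and its other probe gave differences of 1.74 and 1.80. *Ccl12* (chr11:81916710-81916769) was between 7.10 and 8.05 in controls (median 7.52), between 7.96 and 9.28 at day 2 (median 8.67) and between 9.10 and 9.86 at day 5 (median 9.50). Its day 2 range overlapped that of the controls and its day 5 range did not. *Ccl12* rose 2.19-fold and then 3.84-fold (adjusted p in limma 6.57e-05 and 5.01e-08), with a further rise from day 2 to day 5 of 0.81 ± 0.17 (SE, adjusted p in limma 0.0104).

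*Ccl2*, the main ligand of the monocyte receptor *Ccr2*, was up by day 2 and, like *Ccl7*, did not rise past the threshold after that. Its level (probe at chr11:81850650-81850709) was 7.85, 7.30, 7.40 and 8.13 in WT controls and 7.79, 7.23, 7.28 and 8.26 in KO controls. It was 8.63, 8.76, 8.94 and 8.66 at WT day 2 and 8.97, 8.48, 8.88 and 9.14 at KO day 2. At day 5 it was 8.93, 8.77, 8.73 and 8.78 in WT mice and 8.07, 8.49, 8.38 and 8.41 in KO mice. The day 2 samples lay above all controls, and of the day 5 samples 1 KO sample, at 8.07, lay below the 2 highest controls. *Ccl2* rose 2.22-fold by day 2 (1.15 ± 0.15, SE, adjusted p in limma 7.91e-06) and was 1.89-fold above control at day 5 (adjusted p in limma 8.54e-05). The step between day 2 and day 5 did not pass the threshold (-0.24 ± 0.15, adjusted p in limma 0.489). WT samples kept a similar range, 8.63 to 8.94 at day 2 and 8.73 to 8.93 at day 5. KO samples went from a range of 8.48 to 9.14 to one of 8.07 to 8.49.

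The same stretch of chromosome 11 also held members that did not rise. *Ccl11* (chr11:81876072-81876131), the eosinophil attractant eotaxin, lies between *Ccl7* and *Ccl12* and was well above background in all samples. It was between 7.52 and 8.20 in controls and between 7.91 and 8.53 at day 5, with a difference of 0.45 ± 0.26 (SE, adjusted p in limma 0.257). *Ccl1* (chr11:81990336-81990395, minus strand), a T cell-derived ligand of *Ccr8*, lies beyond *Ccl8* and went the other way. It was between 5.25 and 5.72 in controls and between 3.64 and 5.06 at day 5, where all 8 samples lay below all controls and 5 of 8 were well above background. *Ccl1* fell by 1.08 ± 0.20 on the log2 scale (SE, adjusted p in limma 0.000487) and was the only member to fall past the threshold at day 5. With normexp the difference was -0.35.

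Further along chromosome 11, *Ccl9* and *Ccl6*, ligands of *Ccr1* made by myeloid cells, also rose. *Ccl9* (chr11:83388223-83388282) was between 6.96 and 8.02 in controls (median 7.36), between 7.99 and 9.33 at day 2 (median 8.67) and between 8.03 and 9.25 at day 5 (median 8.84). It rose 2.48-fold by day 2 and 2.64-fold by day 5 (adjusted p in limma 0.000123 and 4.64e-05). *Ccl6* (chr11:83401997-83402056) was between 7.66 and 8.51 in controls and between 8.79 and 9.67 at day 5, with no overlap, and rose 2.18-fold (adjusted p in limma 0.000271). At day 2 it was 1.62-fold above control (adjusted p in limma 0.0158), a call that was lost without the 4 controls that shared an array with a lesioned sample. The neighbouring *Ccl3* and *Ccl4*, the macrophage inflammatory proteins, passed the threshold at neither time, with *Ccl3* well above background in 2 and *Ccl4* in 13 of 24 samples.

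**Figure D2:**
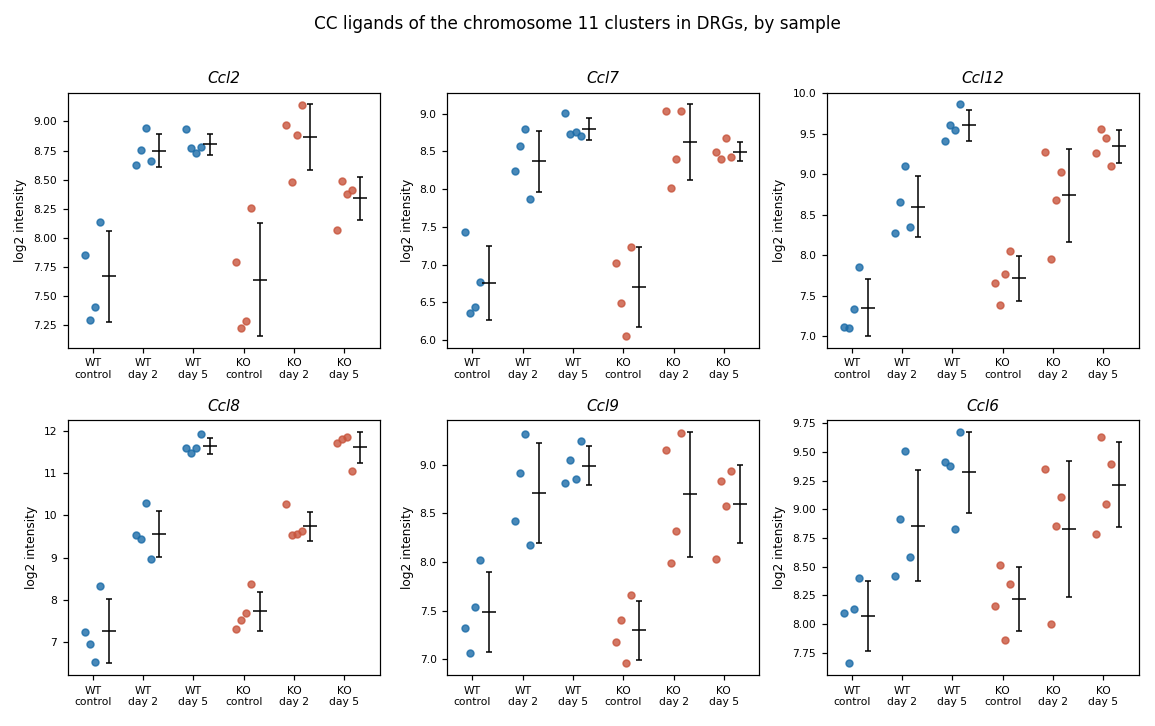
Log2 intensity of *Ccl2*, *Ccl7*, *Ccl12*, *Ccl8*, *Ccl9* and *Ccl6* in each sample (points; WT blue, KO red) by group, with the group mean and SD in black, n = 4. *Ccl8* climbs in both steps to 11.05 or above at day 5, *Ccl2* and *Ccl7* are already up at day 2, and the KO samples of *Ccl2* at day 5 lie between 8.07 and 8.49, below the WT samples.

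*Ccl5*, a T cell and macrophage product, did not pass the threshold against control at either time, but rose from day 2 to day 5 (1.04 ± 0.27, SE, adjusted p in limma 0.0423). Its levels were 8.09, 8.33, 7.81 and 8.58 in WT controls and 7.80, 7.57, 7.82 and 9.59 in KO controls. The 9.59 of KO control replicate 4 was the highest of all 24 samples, above the day 5 range of 7.81 to 9.39. The difference at day 5 was 0.56 (adjusted p in limma 0.168) with this sample and 0.80 (adjusted p in limma 0.0121) without it. Without the 4 controls with a lesioned array partner it was 0.94 (adjusted p in limma 0.0246), and within slides 1, 2 and 3 it was 0.99, -0.51 and 0.83. On slide 2 the day 5 samples were all KO, and KO control replicate 4 was 1 of its 2 controls. On slide 3 the day 5 samples were all WT. Its other probe gave differences of -0.47 and 0.55 at day 2 and day 5.

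Members with a low point at day 2 formed another course. *Ccl24*, known as eotaxin-2 and a product of alternatively activated macrophages, was between 5.28 and 6.53 in controls (median 6.31), between 4.0 and 5.45 at day 2 (median 4.71) and between 5.44 and 6.54 at day 5 (median 6.17). Day 2 samples overlapped the controls only through the lowest control, and day 5 samples spanned nearly the control range. *Ccl24* fell by 1.27 ± 0.20 at day 2 (SE, adjusted p in limma 8.32e-05), when 6 of 8 samples were still well above background, and then rose 2.42-fold to day 5 (adjusted p in limma 0.000619). Its other probe gave -1.11 at day 2 and 0.00 at day 5, and with normexp the day 2 difference was -0.52.

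*Cx3cl1*, fractalkine, is a ligand that neurons carry on their membrane and that macrophages read through *Cx3cr1*. It was between 8.25 and 8.82 in controls (median 8.65), between 7.93 and 8.56 at day 2 (median 8.11) and between 8.38 and 8.68 at day 5 (median 8.49). It fell by 0.49 ± 0.09 at day 2 (SE, adjusted p in limma 0.000302) and not past the threshold at day 5 (-0.10, adjusted p in limma 0.497). The other *Cx3cl1* probe was well above background in 1 sample, and averaging both probes gave 0.13 at day 2 (adjusted p in limma 0.774). *Ccl17*, a *Ccr4* ligand of dendritic cells and macrophages, was between 4.68 and 6.87 in controls and between 4.23 and 5.35 at day 2. Its fall of 0.90 ± 0.31 (SE, adjusted p in limma 0.0442) was not past the threshold without KO control replicate 4 (-0.80, adjusted p in limma 0.0912), nor without the 4 controls that shared an array with a lesioned sample (-0.40, adjusted p in limma 0.498).

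Among the homeostatic CC ligands changes were small. *Ccl25* rose by 0.26 ± 0.08 at day 2 (SE, adjusted p in limma 0.0228) and *Ccl27a* fell by 0.32 ± 0.11 (SE, adjusted p in limma 0.0363). Neither passed the threshold at day 5 or in the F test, although with the slide as a block *Ccl27a* passed at day 5 (-0.29, adjusted p in limma 0.00527). Both lost their day 2 call without the 4 controls with a lesioned array partner, and *Ccl27a* also lost it without KO control replicate 4. *Ccl21a*, a lymphoid ligand of *Ccr7*, was between 7.95 and 9.23 in controls and between 7.84 and 9.59 at day 5, with a difference of 0.02 ± 0.18 (SE, adjusted p in limma 0.973).

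**Figure D3:**
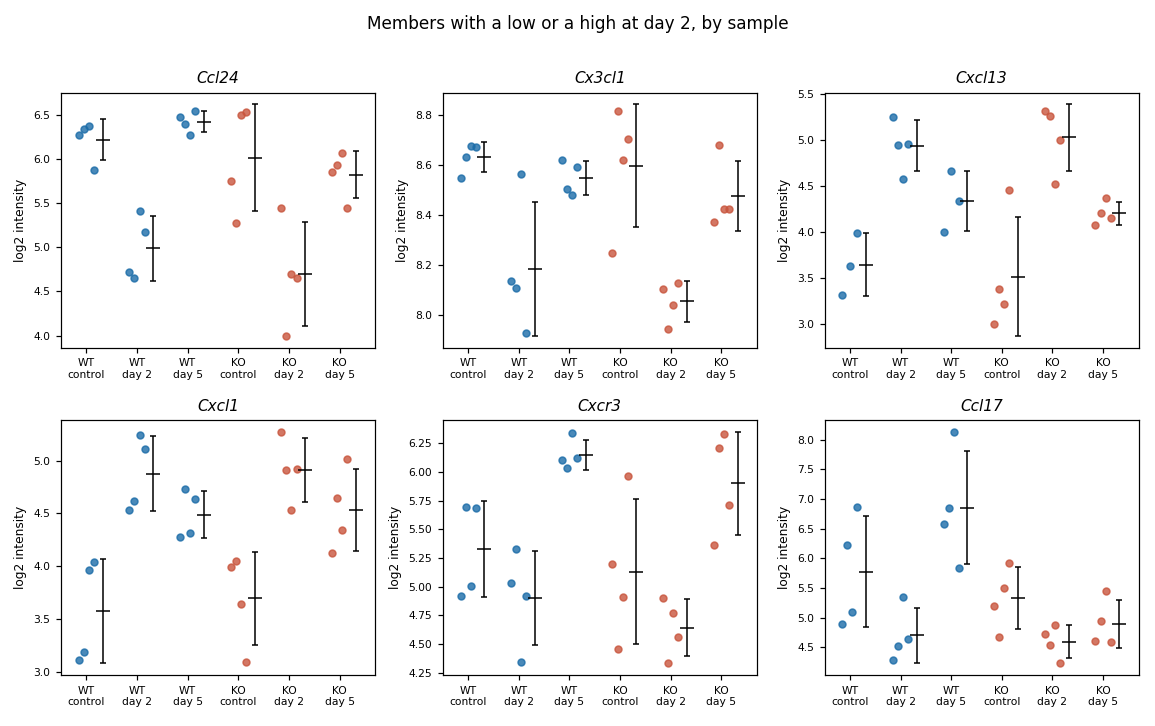
Log2 intensity in each sample (points; WT blue, KO red) of *Ccl24*, *Cx3cl1*, *Cxcl13*, *Cxcl1*, *Cxcr3* and *Ccl17* by group, with the group mean and SD in black, n = 4 (n = 3 for *Cxcl13* in WT control and WT day 5). *Ccl24* and *Cx3cl1* dip at day 2 and return by day 5, and *Cxcl13* and *Cxcl1* are highest at day 2.

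Of the 13 CXC ligands, 4 rose at day 2 and 4 at day 5, and none fell. Of all genes, 9.39% and 10.2% rose at these times, and 12.9% and 13% fell. *Cxcl14*, a chemokine of epithelia and glia whose receptor is debated, was between 4.76 and 6.41 in controls (median 5.30), between 6.22 and 7.09 at day 2 (median 6.51) and between 6.75 and 7.34 at day 5 (median 7.13). One control, WT control replicate 4, reached 6.41, and no control reached the day 5 range. It rose 2.35-fold by day 2 and 3.26-fold by day 5 (adjusted p in limma 8.67e-05 and 1.37e-06), with log2 differences of 1.23 and 1.71, or of 0.60 and 0.89 with normexp. *Cxcl16*, a membrane-bound ligand of macrophages whose receptor is *Cxcr6*, was between 6.38 and 6.74 in controls, between 6.15 and 7.01 at day 2 and between 7.43 and 8.12 at day 5. The day 2 samples overlapped the controls, and all day 5 samples lay above both. *Cxcl16* did not pass the threshold at day 2 (0.06 ± 0.12, SE, adjusted p in limma 0.769) and rose 2.23-fold by day 5 (adjusted p in limma 2.68e-07), and its step between the times passed too (1.09, adjusted p in limma 9.4e-06). Its other probe gave 0.19 and 1.08.

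*Cxcl1*, a neutrophil attractant that acts on *Cxcr2*, was well above background in 2 of 8 controls, 7 of 8 day 2 samples and 6 of 8 day 5 samples. Its levels were between 3.10 and 4.05 in controls, between 4.53 and 5.27 at day 2 and between 4.12 and 5.01 at day 5. All lesioned samples lay above all controls, and it differed by 1.26 ± 0.18 at day 2 (SE, adjusted p in limma 4.22e-05) and by 0.88 at day 5 (adjusted p in limma 0.00128). Over the 15 alternatives the difference ran from 0.30 to 1.87 at day 2 and from 0.18 to 1.37 at day 5, lowest with normexp and highest with processed signals, and it passed in each. In WT mice, where no control was well above background, *Cxcl1* rose at least 1.91-fold by day 2 (adjusted p in limma 0.00233). Its neighbours *Cxcl2* and *Cxcl3*, whose promoters carry the same kappaB-like letters, were well above background in 3 samples and in none, so that their levels could not be followed.

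*Cxcl13*, a B cell attractant that acts on *Cxcr5*, was well above background in 1 of 8 controls, 7 of 8 day 2 samples and 4 of 8 day 5 samples. It was between 3.0 and 4.45 in 7 controls, between 4.52 and 5.32 at day 2 and between 4.0 and 4.66 in 7 day 5 samples. The values of WT control replicate 4 and WT day 5 replicate 2 came from spots marked as outliers and were dropped. *Cxcl13* differed from control by 1.40 ± 0.19 at day 2 (SE, adjusted p in limma 3.83e-05) and by 0.69 ± 0.20 at day 5 (SE, adjusted p in limma 0.0181), and in KO mice it rose at least 2.71-fold by day 2. Both calls were lost when the outlier spots were kept, and with normexp the differences were 0.33 and 0.13, of which the day 5 difference did not pass (adjusted p in limma 0.0772).

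*Cxcl12*, the ligand of *Cxcr4* and *Cxcr7* that stromal cells make, was between 10.17 and 10.83 in controls and between 10.60 and 11.71 at day 2. It rose 1.35-fold at day 2 (adjusted p in limma 0.0133), a call that was lost without the 4 controls with a lesioned array partner, and its other probe gave a like difference of 0.42 that did not pass (adjusted p in limma 0.364). *Cxcl10*, an interferon-induced ligand of *Cxcr3*, was between 7.66 and 9.21 in controls, between 7.22 and 9.99 at day 2 and between 8.45 and 8.79 at day 5. Its differences were 0.04 ± 0.26 and 0.39 ± 0.26 (SE, adjusted p in limma 0.939 and 0.348). The other interferon-induced ligands *Cxcl9* and *Cxcl11* did not pass the F test either (adjusted p in limma 0.086 and 0.1).

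At day 2, 1 of 18 receptors rose and none fell, where 9.39% of all genes rose and 12.9% fell. At day 5, 5 of 18 rose, where 10.2% of all genes did. *Ccr2*, the receptor of *Ccl2*, *Ccl7* and *Ccl12* on monocytes, was between 5.65 and 6.39 in controls (median 6.15), between 6.07 and 7.0 at day 2 (median 6.44) and between 6.96 and 7.42 at day 5 (median 7.11). The day 5 samples lay above all controls. *Ccr2* rose 1.36-fold by day 2 (adjusted p in limma 0.0153) and 2.16-fold by day 5 (adjusted p in limma 1.45e-06), and from day 2 to day 5 it rose by 0.67 ± 0.13 (SE, adjusted p in limma 0.00379). Its other probe, well above background in 11 of 24 samples, gave 0.03 and 0.52, neither past the threshold. With normexp the differences were 0.24 and 0.66.

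*Cxcr6*, the receptor of *Cxcl16*, was between 4.47 and 5.18 in controls and between 5.39 and 6.12 at day 5, with no overlap, and rose 1.80-fold (adjusted p in limma 0.000605), with a log2 difference of 0.85, or of 0.33 with normexp. *Cxcr3*, a T cell receptor for *Cxcl9* and *Cxcl10*, was between 4.46 and 5.97 in controls, between 4.33 and 5.33 at day 2 and between 5.36 and 6.34 at day 5. It rose by 0.80 ± 0.20 at day 5 (SE, adjusted p in limma 0.00589) and by 1.25 from day 2 to day 5 (adjusted p in limma 0.000899). Its highest control, 5.97, was KO control replicate 4, and without it the day 5 difference was 0.94. Without the 4 controls with a lesioned array partner it was 1.20, with normexp 0.34, and within slides 1, 2 and 3 it was 1.02, 0.13 and 1.03. Slide 2 held only KO samples at day 5, with KO control replicate 4 as 1 of its 2 controls, and slide 3 only WT samples at day 5.

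*Cxcr2*, a neutrophil receptor for *Cxcl1*, differed by 0.88 ± 0.28 at day 5 (SE, adjusted p in limma 0.0272), between 3.75 and 5.16 in controls and between 4.25 and 6.49 at day 5. This call was lost without KO control replicate 4 and without any of 5 other samples, and without the 4 controls with a lesioned array partner (0.75, adjusted p in limma 0.19), and its other probe did not pass. With normexp it was 0.32. *Cxcr4* and *Cxcr7*, the receptors of *Cxcl12* on neurons, glia and vessels, did not pass the threshold. *Cxcr4* was between 6.75 and 7.44 in controls and between 6.50 and 6.95 at day 5 (-0.27 ± 0.12, SE, adjusted p in limma 0.137). *Cxcr7* was between 6.92 and 8.03 in controls and between 6.22 and 7.70 at day 2 (-0.51 ± 0.21, SE, adjusted p in limma 0.0905). Of the other receptors, *Ccr3*, *Ccr9* and *Ccr10* were well above background in 17, 16 and 7 samples and did not pass either.

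**Figure D4:**
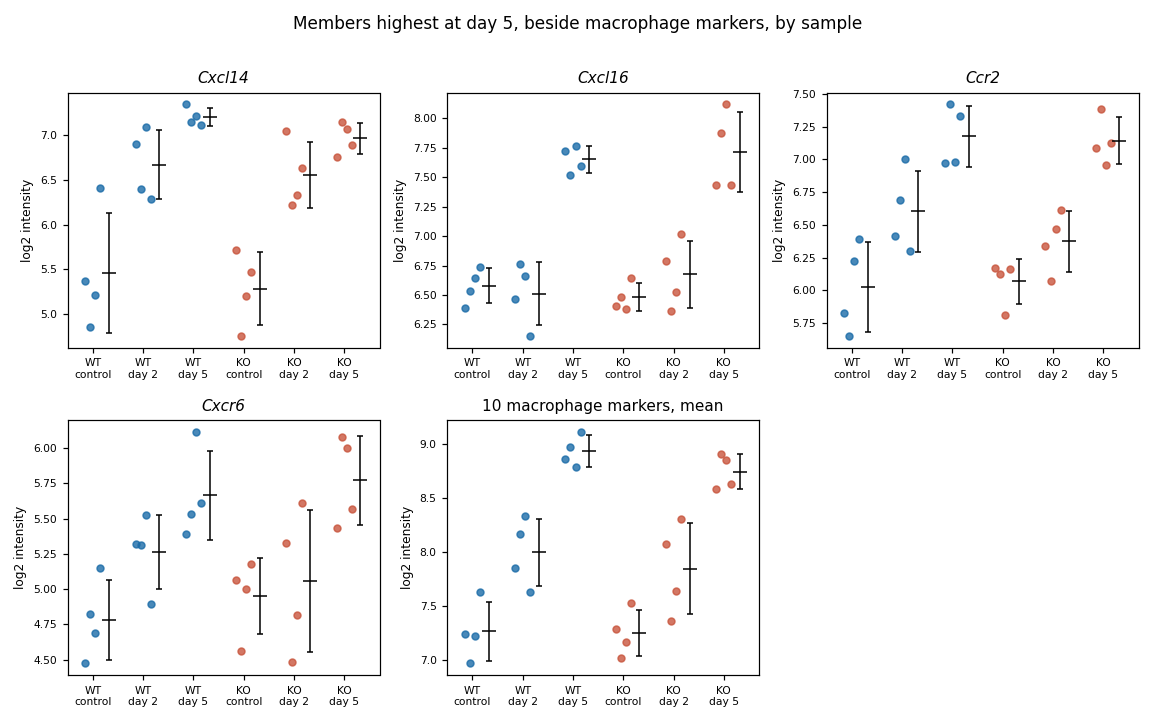
Log2 intensity in each sample (points; WT blue, KO red) of *Cxcl14*, *Cxcl16*, *Ccr2* and *Cxcr6*, and the mean log2 intensity of 10 macrophage markers, by group, with the group mean and SD in black, n = 4. In each panel the day 5 samples lie above all controls, and the macrophage mean runs from 8.58 to 9.12 at day 5 against 6.96 to 7.63 in controls.

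Markers of macrophages moved with these members. Their 10 markers (*Cd68*, *Aif1*, *Csf1r*, *Emr1*, *Itgam*, *Ptprc*, *Cd14*, *Fcgr1*, *Mrc1* and *Cd163*) all passed the F test, 6 of 10 rose at day 2 and 10 of 10 at day 5, with median differences of 0.66 and 1.57. Their mean level ran from 6.96 to 7.63 in controls, from 7.36 to 8.33 at day 2 and from 8.58 to 9.12 at day 5, without overlap between controls and day 5. The part of these markers in the chemokine differences was not tested. *Ccl8* at day 5 (4.13) differed by more than any of the 10 macrophage markers, of which *Fcgr1* differed most (1.98). Of 7 neutrophil markers none passed the threshold, although 6 were well above background in all samples and their mean level varied widely, from 8.0 to 9.66 in controls and from 7.27 to 11.10 at day 5. Of 7 T cell markers none passed, with a mean level of 4.97 to 5.43 in controls and of 5.06 to 5.51 at day 5. Satellite glia markers moved both ways: of 5, 2 rose and 3 fell at day 2, and 2 rose and 1 fell at day 5. At day 2, 2 of 7 endothelium and 1 of 5 Schwann cell markers rose, and at day 5 1 of 5 fibroblast markers did. Of 8 sensory neuron markers, 6 fell at day 2, and at day 5 5 fell and 1 rose. Among all genes, 26.3% passed the F test, 9.39% rose and 12.9% fell at day 2, and 10.2% rose and 13% fell at day 5.

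The wider chemokine system was read from lists outside the members. Of the other ligands, *Pf4*, a CXC chemokine of platelets and macrophages, rose by 0.92 and 1.61 at day 2 and day 5 (adjusted p in limma 0.000304 and 3.1e-07), and the remaining 3 of 4 did not pass. Of 8 other receptors on the array, *Cx3cr1*, the fractalkine receptor of macrophages, rose by 1.78 at day 5 (adjusted p in limma 2.01e-08) and not past the threshold at day 2 (0.27, adjusted p in limma 0.225), and no other passed, the scavenging receptors *Darc* and *Ccbp2* included. So *Cx3cl1* was low at day 2 and its receptor high at day 5. Of 13 genes of receptor signalling, 5 rose and 2 fell at day 2 (9.39% and 12.9% of all genes). At day 5 the counts were also 5 and 2 (10.2% and 13% of all genes). Those that rose at day 5 were *Pik3cg* (1.90), *Vav1* (1.33), *Rac2* (1.30), *Arrb1* (0.72) and *Gnai3* (0.35), and those that fell were *Adrbk1* (-0.82), the receptor kinase GRK2, and *Prex1* (-0.40).

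Of 17 genes that are known to induce chemokines, 4 rose and 1 fell at day 2 (9.39% and 12.9% of all genes). At day 5, 6 of them rose (10.2% of all genes). *Il6* rose most, by 2.67 ± 0.15 at day 2 and 2.03 ± 0.15 at day 5 (SE, adjusted p in limma 6.64e-11 and 2.56e-09), and was well above background in 4 of 8 controls and in all lesioned samples. *Il1b* rose by 1.11 and 0.99, *Myd88* by 0.56 and 0.48 and *Rela* by 0.41 and 0.54, all past the threshold. *Tlr2* rose at day 5 (1.32, adjusted p in limma 1.08e-07), as did *Nfkb2* (0.46, adjusted p in limma 0.0408). *Tnf* was well above background in 1 sample and *Ifng*, which fell at day 2, in 2, while *Irf1* and *Irf7*, which act in interferon signalling, did not pass the threshold.

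The KO addressed whether *Nfil3* alters these responses. No member passed the threshold for KO minus WT in control, at day 2 or at day 5, or for the time by genotype interaction in limma, where 0% of all genes passed in control, 0.0146% at day 2, 0.0109% at day 5 and 0% in the interaction. At an unadjusted p under 0.05, 1, 2 and 5 of 53 members passed in control, at day 2 and at day 5, where 1.7%, 3.86% and 2.34% of all genes did, and 2 in the interaction, where 2.11% did. The smallest adjusted p of a member was 0.9. *Nfil3* itself passed at day 2 and day 5, but not in control (-3.98) or in the interaction. In simulated data with independent noise and 200 of 40895 probes changed, 57.5% of KO minus WT changes of 1 at day 5 were recovered. Of changes of 0.5, 10% were recovered. In the real data samples of 1 array were correlated and few genes passed, so these shares need not hold there. Differences of 1 or 0.5 could thus be missed. The lesion itself was followed by similar counts in either genotype. In WT mice 11 members passed at day 2 and 13 at day 5 (11.2% and 13.9% of all genes), and in KO mice 10 and 13 (11.9% and 12.8% of all genes). *Ccl8* rose by 4.38 in WT and by 3.88 in KO mice at day 5, and the KO minus WT difference at day 5 was -0.04, with a 95% interval from -0.73 to 0.65.

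At day 5 the members nevertheless tended lower in KO than in WT samples, by differences that did not pass the correction. Of the 53 members, 37 were lower in KO at day 5, with a median difference of -0.11 against 0.01 for all genes, and of the 20 members detected in all samples 16 were lower (median -0.17). In control 28 of the 53 and 13 of the 20 were lower in KO (medians -0.02 and -0.04). At day 2 these counts were 29 and 12 (medians -0.05 and -0.07). The share of all genes that were lower was not counted beside these counts. Members can vary together, the 37 include members seldom or never well above background, and the counts were not tested. In 6 members (*Ccl2*, *Ccl7*, *Ccl17*, *Ccl19*, *Ccl24* and *Cxcr7*) all 4 KO samples lay below all 4 WT samples at day 5 (11.3%), where 1.11% of all genes had that order. In none did all KO samples lie above, where 1.39% of all genes had that order. In control and at day 2 no member had either order, where 0.588% and 0.715% of all genes had all KO samples below and 0.599% and 0.909% all above. At day 5 the WT and KO samples had only slide 1 in common. Genotype and slide were thus partly confounded at that time. Outside slide 1 the day 5 samples alone cannot tell their parts apart, and the part of the slide was not tested.

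*Ccl17* differed most. At day 5 it was 6.58, 6.85, 8.14 and 5.84 in WT samples and 4.60, 4.94, 5.45 and 4.59 in KO samples. The WT samples lay above the KO samples, and 1 WT sample stood high. The difference was -1.96 ± 0.44 (SE, 95% interval -2.88 to -1.04), with an unadjusted p in limma of 0.000262 and an adjusted p of 0.9, and over the 15 alternatives of processing and fit it ran from -2.30 to -0.97 with adjusted p of 0.409 or more. *Ccl2* differed by -0.46 at day 5 (95% interval -0.90 to -0.03), *Ccl24* by -0.59, *Ccl19* by -0.68, *Cxcr7* by -0.50 and *Ccl7* by -0.30, all with an adjusted p in limma of 1. Both probes of *Ccl19* and of *Ccl24* gave this order, and of *Ccl7* 1 of 2 probes did. *Ccl21a* differed by -0.84 ± 0.25 (SE, unadjusted p in limma 0.00352, adjusted p 1), and its KO and WT samples overlapped.

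The macrophage markers also lay lower in KO at day 5, in 10 of 10 markers, by -0.02 to -0.32 and with no adjusted p past the threshold. Their mean level at day 5 was 8.87, 8.98, 8.78 and 9.12 in WT samples and 8.58, 8.91, 8.85 and 8.63 in KO samples, with overlap. The part of these markers in the member differences was not tested. The promoters of *Ccl17*, *Ccl19* and *Cxcr7* held no TTANNTAA in the 300-base window, and those of *Ccl2*, *Ccl7* and *Ccl24* were not searched. Only 6% of all promoters held the word there, so its absence decides nothing. The study's own search for NFIL3 sites covered a longer upstream region. Among the 20 members detected throughout, KO minus WT differences at day 5 ran from -0.84 to 0.08.

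**Figure D5:**
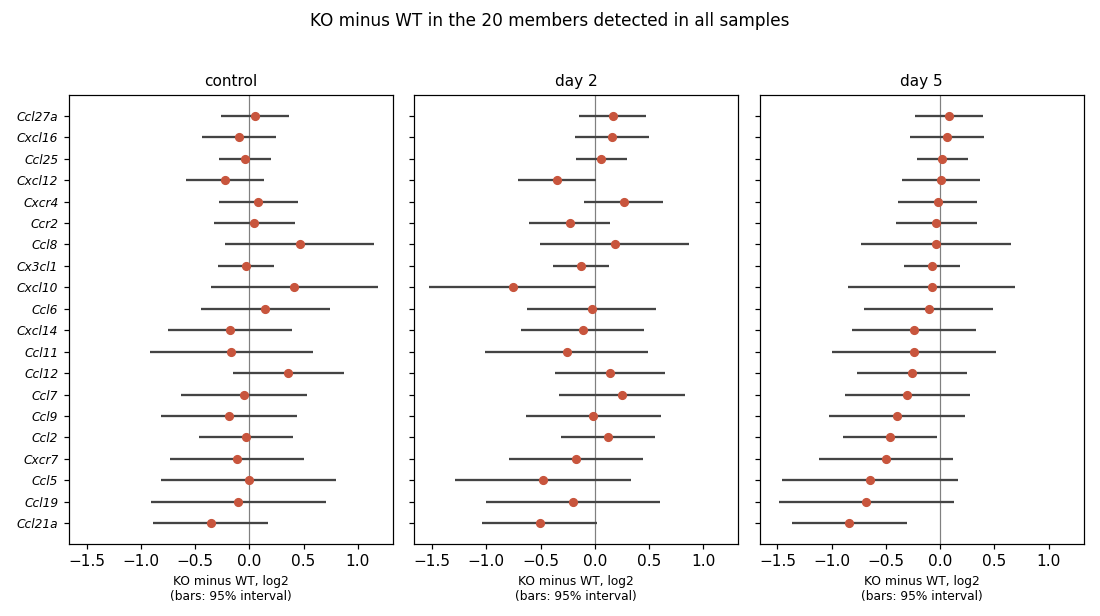
KO minus WT differences on the log2 scale in control, at day 2 and at day 5 for the 20 members well above background in all samples, with 95% intervals. No difference passed the threshold after adjustment, and at day 5 16 of the 20 points lie below 0, down to -0.84 for *Ccl21a*.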

How the data were processed

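Gene expression was measured in DRGs with Agilent 4x44K whole mouse genome arrays, 24 samples on 12 arrays of 3 slides, with a different sample in each channel and 2 samples per group and dye. The authors extracted the scans with Feature Extraction 10.7.3.1, and the deposited intensity values (foreground, background and processed signals per spot and channel) were not normalized between samples. The other deposited columns, flags for outliers and for signal well above background, were used as given. Here the mean foreground was corrected for the median background with the Edwards method and quantile normalized over all channels on a log2 scale, which followed the methods of the study. Control spots and outlier spots were dropped (417 probe values missing), and spots of a probe were averaged. R 4.3.3 was used with limma 3.58.1: lmFit and eBayes with 1 mean per group over all 24 samples, tested beforehand on simulated data.

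Each gene was represented by its brightest probe on average. A fold is a lower bound where the dimmer group had no sample well above background. Probe positions are those of the files (mm9). Named were members past the threshold in any contrast or by another probe in the F test, and *Ccl2*, *Ccl7*, *Cxcl10*, *Cxcl12*, *Cxcl14*, *Cxcl16*, *Cx3cl1*, *Ccl5*, *Ccl21a*, *Cxcr4*, *Cxcr7*, *Ccr1* and *Ccr2* in any case. Members, gene lists and tests were chosen with earlier results of these data known, and *Ccl11*, *Ccl3*, *Ccl4*, *Cxcl2*, *Cxcl9*, *Cxcl11*, *Ccl19*, *Ccr3*, *Ccr9* and *Ccr10* were named after their values were seen. Counts cover all members and lists, and some genes in them are not reported here by name. The study speaks of independent replicates, and whether controls and lesioned DRGs came from the same mice is not given in the sources used here. Precision is limited by the number of arrays. The 15 alternatives included other background corrections, normalizations, covariates, blocks and samples left out.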

Additional observations from a re-analysis of the deposited data

Results flagged for a closer look

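In 7 of 136 gene and group combinations tested (5.15%), 1 sample lay far from the other 3, where chance gives about 1 in 20. *Ccl5* was 9.59 in KO control replicate 4, against 7.57 to 7.82 in the other KO controls. *Ccl8* was 10.26 in KO day 2 replicate 1 (others 9.54 to 9.63). *Ccr2* was 5.81 in KO control replicate 3 (others 6.13 to 6.17). *Cx3cl1* was 8.68 in KO day 5 replicate 2 (others 8.37 to 8.43). *Cxcl10* was 9.99 in WT day 2 replicate 3 (others 8.04 to 8.27). *Cxcl12* was 10.39 in KO day 5 replicate 1 (others 10.75 to 10.82). *Cxcr4* was 7.10 in WT day 2 replicate 4 (others 6.52 to 6.59).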

How the results depend on the processing

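Over 14 other settings and 1 chosen after seeing the data, the number of members past the threshold ranged from 19 to 24 in the F test (22 as reported), from 12 to 19 at day 2 (16) and from 15 to 17 at day 5 (16). Leaving out 1 sample gave 20 to 23, 14 to 18 and 15 to 17. From day 2 to day 5 these counts were 10 to 12 (11) over the alternatives and 8 to 13 with 1 sample left out. KO minus WT and the interaction had 0 members in every such fit. Over the 8 settings that change values or probes, 6 to 9 members had all KO below all WT samples at day 5. With the replicate number as a block the counts were 22, 16 and 16, without KO control replicate 4 they were 22, 15 and 17, and without the 4 controls with a lesioned array partner 20, 12 and 16. The replicate numbers pair nothing in the labels, and deviations of same-numbered samples correlated from -0.59 to 0.60. Deviations of samples on 1 array correlated from 0.01 to 0.63 (median 0.43), with a correlation of 0.26 as a random block, under which the counts were 23, 16 and 16. With the array partner as a block *Ccl17* at day 2 did not pass (adjusted p in limma 0.0504).

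With its probes averaged, *Cx3cl1* reversed at day 2 (0.13), where the added probe was above background in 1 sample. *Ccl8*, *Ccl7*, *Ccl12*, *Ccl2*, *Ccl9* and *Cxcl14* at both times, and *Cxcl16* and *Cxcr6* at day 5, passed under every alternative and with any 1 sample left out. Borderline calls did not: that of *Ccl17* at day 2 held in 8 of the 24 fits with 1 sample left out. *Cxcr7* at day 2 passed without WT control replicate 2 (-0.61), WT day 2 replicate 3 (-0.62) or KO day 2 replicate 4 (-0.66). The calls of *Ccl25* at day 2 (0.22 to 0.24 without WT control replicate 1, WT day 2 replicate 4 or KO control replicate 2) and *Cxcl13* at day 5 (0.61 without WT control replicate 1 or WT day 5 replicate 3) were lost, and the cause was not tested. Signal close to background limited *Cxcl1* and *Cxcl13*.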

Other observations

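Control samples that shared an array with a lesioned sample differed from the other controls in several members, and most in *Cxcl9* among those named here. The mean level in these 4 controls and in the other 4 was 7.24 and 5.48 for *Cxcl9*, 6.05 and 5.05 for *Ccl17*, 8.57 and 7.82 for *Ccl5*, 5.64 and 4.82 for *Cxcr3*, 7.87 and 7.44 for *Ccl2* and 7.74 and 7.25 for *Ccl8*. KO control replicate 4, the sample with the conflicting day label, was among the controls beside a lesioned sample. It had the highest *Cxcl9* (8.53) and *Ccl5* (9.59) of all controls, and these means include it. For *Cxcr3* the lowest of the 4, at 5.20, lay above the highest of the others, at 5.01. These members were chosen after their values were seen, the comparison was not tested, and it bears on the control level from which each lesion difference was counted.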
